A study of Homo sapiens with 12 samples.

Results

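The replication-dependent histone genes encode the H1, H2A, H2B, H3 and H4 proteins that package newly copied DNA. All rows of the deposited count table were taken whose gene symbol names one of these genes (H1-1 to H1-6, and the numbered H2AC, H2BC, H3C and H4C genes), which gave 69 genes of 70116 rows: 6 of type H1, 17 of H2A, 18 of H2B, 13 of H3 and 15 of H4. Of these, 55 lie on chromosome 6, 13 on chromosome 1 and 1, H4C16, on chromosome 12. They were measured in MiaPaCa-2, a long-established line from a human pancreatic carcinoma, in which single genes had been knocked down with siRNAs, small double-stranded RNAs that direct the cutting of a matching transcript. Group siControl received a control siRNA, siSLC25A1 an siRNA against the carrier that exports citrate from mitochondria, siACLY one against ATP citrate lyase, which makes cytosolic acetyl-CoA from citrate, and siACO1 one against cytosolic aconitase, which turns citrate into isocitrate. Each group had 3 libraries, 12 in all. The labels give neither the siRNA sequences, the number of siRNAs for each target, the time after transfection nor the nutrient condition, and all groups are 1 cell line.

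Histone proteins are needed in bulk while DNA is copied, and the transcripts of these genes accumulate in S phase and are degraded when it ends. Most of them carry no poly(A) tail: they end just after a short stem-loop in the 3′ untranslated region, which is bound by the stem-loop binding protein SLBP and cut with the help of the U7 small nuclear RNP. NPAT, a substrate of cyclin E and CDK2, drives their transcription at the histone locus bodies. Some of the genes also make longer transcripts that pass the stem-loop and end in a poly(A) tail. The libraries were made from RNA bound to poly-T beads, per the labels, so the values below describe the histone transcripts that such a selection retains, not the whole histone RNA of the cells.

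The stem-loop is the feature that sets these transcripts apart, and it is shown here for 8 of the members described below whose annotated transcript holds it. Annotated transcripts (GENCODE release 29, GRCh38) were found for 65 of the 69 members and searched for the 16 letters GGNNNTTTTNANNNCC on the transcript strand, where N is any base. The letters were present in 28 members (43.1%), against 1.207% of the 58676 annotated genes. Each sequence runs 5′ to 3′, with the stem-loop in capitals:
H2AC6: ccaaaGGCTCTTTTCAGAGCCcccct
H2BC21: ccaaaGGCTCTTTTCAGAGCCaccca
H3C10: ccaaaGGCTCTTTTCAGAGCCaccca
H2BC5: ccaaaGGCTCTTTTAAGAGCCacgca
H2BC4: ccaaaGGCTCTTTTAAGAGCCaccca
H2AC11: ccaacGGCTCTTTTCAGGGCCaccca
H4C8: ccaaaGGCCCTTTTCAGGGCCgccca
H4C16: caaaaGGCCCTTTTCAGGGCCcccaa
The form in H2AC6, H2BC21 and H3C10 was the commonest of 5 and occurred in 15 members. In 22 members the annotated transcript continued for more than 100 bases past the stem-loop, and in 15 of these the remainder held the poly(A) signal letters AATAAA. The model of H4C8 continued for 1655 bases with 4 such matches, that of H2AC6 for 1128 bases with 2, and that of H2BC5 for only 39 bases with 1. The models of H1-2 and H2BC12 were 642 and 381 bases long and did not hold the letters. A short model can end before the stem-loop, so a model without the letters does not show that the gene lacks it. The share of 43.1% therefore describes the models, not the genes.

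Library totals ran from 24159424 to 43792811 counts. The members together held 1038 to 6274 counts in a library, or 0.00423% to 0.02% of its total, so counting error limits most single members. The targeted transcripts checked the labels: SLC25A1 was at 8.78% of siControl in siSLC25A1, ACLY at 7.25% in siACLY and ACO1 at 3.75% in siACO1. Of markers for the line, the keratins KRT8 (1260 to 2440 CPM, counts scaled to library size) and KRT18 (750 to 1350 CPM) and the mesenchymal VIM (3470 to 4810 CPM) were abundant. KRT19 (47.2 to 143 CPM) was also present and KRT7 was at most 0.357 CPM. Of stromal markers, the collagen COL1A2 was at 784 to 1590 CPM, while COL1A1 was at most 0.25 CPM and DCN at most 0.0776 CPM. EPCAM and CDH1 had at most 2 counts in a library, and the acinar, endocrine and leukocyte markers PRSS1, CPA1, CELA3A, INS, GCG and PTPRC and the gene CDKN2A had none. The labels do not say whether the replicates came from separate cultures, so p-values measure only the spread between these samples.

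Counts were high enough to test 31 of the 69 members: 3 of H1, 8 of H2A, 11 of H2B, 5 of H3 and 4 of H4. Another 29 had reads but no more than 23 in any library, among them the near-identical pairs H2AC18 and H2AC19, and H3C14 and H3C15. The other 9 (H1-1, H2AC1, H2BC1, H2BC9, H2BC10, H2BC26, H3C7, H4C6 and H4C7) had no read in any library. H2AC1 and H2BC1 are known as testis forms. The 38 untested members summed to 2.94 ± 0.269 CPM in siControl and 4.39 ± 0.821 CPM in siACO1 (SD, n = 3), so nearly all of the signal came from the tested genes. The filter on low counts used all 12 libraries, so a member with few reads could pass through the groups where it was high. A fit of siSLC25A1 and siControl alone tested 24 members. Counts of called or non-overlapping members among the 31 can therefore lean towards such groups.

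The summed level of all 69 members, in CPM after TMM normalization (trimmed mean of M values), was 65.1, 61.5 and 61.1 in the 3 siControl libraries. It was 47.2, 42.9 and 43 in siSLC25A1, 86, 93.3 and 101 in siACLY, and 177, 181 and 201 in siACO1. The 4 groups did not overlap: siSLC25A1 stood at 70.9% of siControl, siACLY at 149% and siACO1 at 298%. In bulk RNA, fewer cells making these transcripts and less transcript per cell cannot be told apart. This sum is a description without a test, and in siACO1 it rested largely on a pair of genes. H2BC12 and H1-2 together held 41.4% of the members' CPM in siControl and 59.4% in siACO1; without them siACO1 stood at 206%, siACLY at 156% and siSLC25A1 at 69.4% of siControl.

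**Figure D1:**
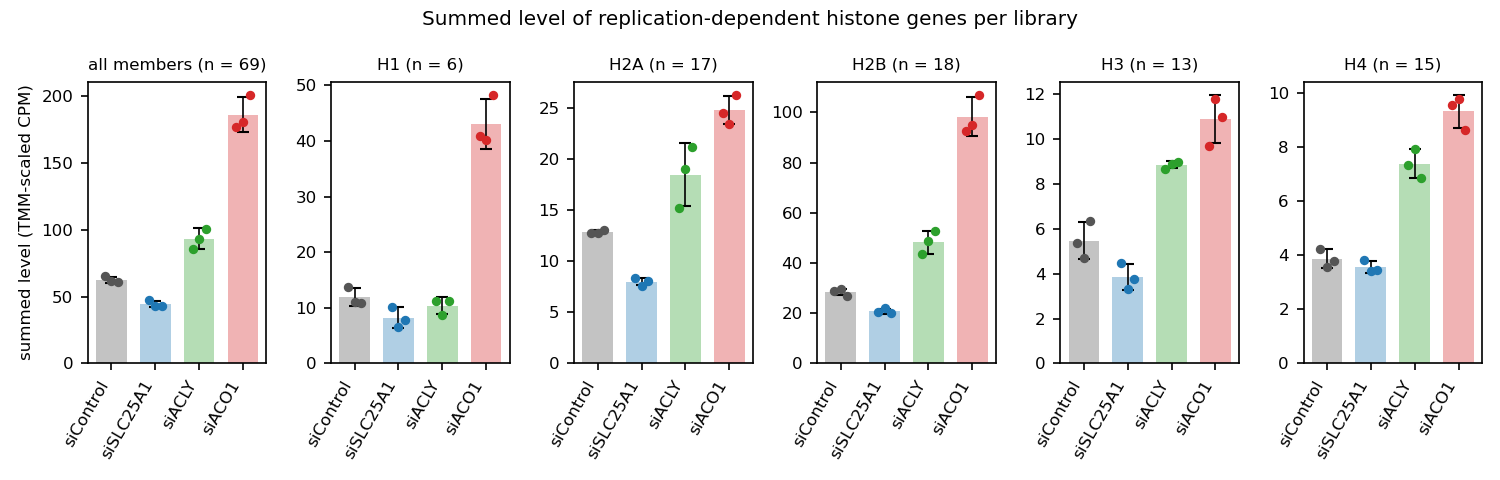
Summed TMM-scaled CPM of all 69 members and of each histone type, with 1 point for each library, a bar for the mean and a line for the SD (n = 3). The scale differs between panels and starts at 0; for all members siSLC25A1 was lowest (44.4 CPM) and siACO1 highest (186 CPM), and for H1 siACLY (10.4 CPM) did not exceed siControl (11.9 CPM).

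The histone types did not move by the same amount. H1 stood at 69.2% of siControl in siSLC25A1, 87.8% in siACLY and 364% in siACO1. H2A stood at 62.2%, 143% and 192%, and H2B at 72.8%, 170% and 346%, in the same order. H3 stood at 70.6%, 162% and 198%, and H4 at 92.1%, 191% and 241%. Of the 5 types, the linker histones H1 had the highest ratio in siACO1 and were the only type with a mean below siControl in siACLY, where their libraries overlapped the controls. H4 was the type nearest to siControl in siSLC25A1. These sums follow the genes with the most reads, and the median gene often differed from them. In siACO1 the H1 sum was nearly all H1-2 (mean 40.8 CPM), and the median log2 fold change of the 3 tested H1 genes was −0.01, the lowest of the 5 types, against 0.59 for H2A, 1.18 for H2B, 0.97 for H3 and 1.14 for H4. In siACLY the medians were −0.64 for H1, −0.04 for H2A, 0.76 for H2B, −0.32 for H3 and 0.88 for H4, so the median H2A and H3 genes were not above siControl although their sums were. In siSLC25A1 they were −1, −0.73, −0.46, −0.91 and −0.16 in the same order.

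Knockdown of ACO1 was followed by higher levels of 16 of the 31 tested members and lower levels of none, at a Benjamini-Hochberg adjusted p under 0.05 in edgeR's quasi-likelihood test over 16197 genes. Over all genes tested, 17.8% were called higher and 19.3% lower. The count of 0 lower members was also 0 with DESeq2 and at an unadjusted p under 0.05. The median log2 fold change of the tested members was 0.97 (range −0.18 to 2.11), against 0.01 over all genes, and 26 of the 31 estimates were above 0. In 19 of the 31 all 3 siACO1 libraries lay above all 3 siControl libraries and in 0 below, whereas 22.9% of all genes tested lay above and 23.4% below. The calls covered 1 of 3 tested H1 genes, 3 of 8 H2A, 7 of 11 H2B, 2 of 5 H3 and 3 of 4 H4. The siACO1 libraries took part in the filter on low counts, so these counts can lean towards members that are high there. Among those called, H2BC7 had 5, 6 and 3 reads in siControl and 14, 9 and 13 in siACO1.

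H2BC12, which encodes an H2B protein (chr6:27138293-27146858, minus strand), was at 16.7, 16.1 and 15.7 CPM in siControl. It was at 11.4, 11.8 and 12.1 CPM in siSLC25A1, 26.0, 26.3 and 29.5 CPM in siACLY, and 66.2, 66.4 and 77.3 CPM in siACO1. Its 4 groups did not overlap, and its log2 fold change in siACO1 was 2.11 ± 0.07 (SE), or 4.32-fold, with an adjusted p of 9.49e-20. The count of H2BC12 may include reads of related genes, since 86.3% of the 31-base stretches of its annotated transcript occur in transcripts of other genes. That GENCODE 29 model is 381 bases long, so the share does not describe longer transcripts of H2BC12.

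H1-2, a linker histone gene (chr6:26055740-26056470, minus strand), was at 11.4, 8.96 and 8.79 CPM in siControl and at 38.6, 38.2 and 45.6 CPM in siACO1. It was at 8.65, 5.92 and 6.96 CPM in siSLC25A1 and 10.1, 7.25 and 9.87 CPM in siACLY. The siACO1 libraries lay far above all others, siACLY overlapped the controls, and siSLC25A1 lay just below them. The log2 fold change of H1-2 was 2.07 ± 0.13 in siACO1 (adjusted p = 3.52e-09), −0.09 ± 0.15 in siACLY (adjusted p = 0.681) and −0.43 ± 0.16 in siSLC25A1 (adjusted p = 0.0657). Only 0.8% of its 31-base stretches were shared with other genes. The other tested linker histone genes, H1-4 and H1-5, had log2 fold changes of −0.12 and −0.01 in siACO1 and were not called.

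H2BC11, another H2B gene (chr6:27132316-27132795, minus strand), was at 1.0, 1.22 and 0.643 CPM in siControl, 0.802, 0.926 and 0.746 CPM in siSLC25A1, 1.55, 2.33 and 1.62 CPM in siACLY, and 3.3, 4.0 and 4.27 CPM in siACO1. Its log2 fold change in siACO1 was 1.99 ± 0.22 (adjusted p = 2.46e-08), with no overlap between siACO1 and any other group. H4C8, which encodes the H4 protein (chr6:26285126-26285534, minus strand), was at 1.31, 1.47 and 1.25 CPM in siControl and 1.33, 1.13 and 1.16 CPM in siSLC25A1. It was at 3.82, 3.84 and 3.55 CPM in siACLY and 3.94, 4.45 and 4.11 CPM in siACO1. The siACLY and siACO1 libraries of H4C8 all lay above the control and siSLC25A1 libraries, with a log2 fold change of 1.63 ± 0.17 in siACO1 (adjusted p = 6.39e-09).

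H3C10, an H3 gene (chr6:27810051-27810536, plus strand), was at 1.93, 1.72 and 2.82 CPM in siControl, 2.55, 0.724 and 2.03 CPM in siSLC25A1, 4.41, 5.16 and 4.82 CPM in siACLY, and 4.35, 6.76 and 6.87 CPM in siACO1. Its siSLC25A1 and control ranges overlapped, and both lay below siACLY and siACO1 (siACO1 log2 fold change 1.51 ± 0.29, adjusted p = 0.000847). H2AC13, an H2A gene, was at 0.419, 0.388 and 0.393 CPM in siControl and 1.41, 0.78 and 1.38 CPM in siACO1. In siSLC25A1 it was at 0.14, 0.322 and 0.207 CPM, and in siACLY at 0.495, 0.776 and 0.54 CPM. The siACO1 values exceeded the controls in all 3 libraries (log2 fold change 1.55 ± 0.35, adjusted p = 0.00078), but 63.8% of the 31-base stretches of H2AC13 were shared with other genes.

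H2AC6, an H2A gene (chr6:26124172-26124690, plus strand), was at 6.08, 5.99 and 6.97 CPM in siControl, 2.89, 3.74 and 3.48 CPM in siSLC25A1, 9.35, 11.3 and 14.4 CPM in siACLY, and 15.7, 14 and 16.5 CPM in siACO1. Its siSLC25A1 libraries were all below and its siACLY and siACO1 libraries all above the controls, with 1 siACLY library inside the siACO1 range. H2BC5, an H2B gene (chr6:26158121-26171349, plus strand), was at 2.96, 3.36 and 2.47 CPM in siControl, 1.85, 2.21 and 1.74 CPM in siSLC25A1, 4.41, 5.04 and 5.74 CPM in siACLY, and 7.69, 8.81 and 8.48 CPM in siACO1. The 4 groups of H2BC5 followed one another without overlap. In siACO1 the log2 fold change was 1.28 ± 0.12 for H2AC6 (adjusted p = 6.39e-09) and 1.5 ± 0.14 for H2BC5 (adjusted p = 9e-10).

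The other members called in siACO1 were H2BC21 (log2 fold change 1.18), H4C16 (1.06), H2BC7 (1.55), H2BC18 (1.45), H4C5 (1.17), H3C3 (0.98), H2BC15 (0.87) and H2AC11 (0.59). The last 6 of these did not hold in every setting. H2AC11 was not called when any 1 of the 6 siControl and siACO1 libraries was left out (adjusted p up to 0.147), with a replicate block (adjusted p = 0.0523), with DESeq2 (adjusted p = 0.0708) or with no filter on low counts (adjusted p = 0.0733). The calls of H2BC7 and H4C5 were lost with DESeq2 (adjusted p = 0.0502 and 0.0642) and with no filter on low counts (adjusted p = 0.0524 and 0.0732). The call of H3C3 was lost without any 1 siControl library or siACO1 replicate 1 or 2 (up to 0.289), and that of H2BC7 also without siControl replicate 1 or 3 or siACO1 replicate 1 (up to 0.107). The call of H4C5 was also lost without siControl replicate 1 or 2 or siACO1 replicate 1 or 2 (up to 0.149), that of H2BC15 without siControl replicate 2 or 3 or siACO1 replicate 2 (up to 0.0626), and that of H2BC18 without siControl replicate 1 or siACO1 replicate 1 or 3 (up to 0.178). The remaining 10 calls held under every alternative that tested them, which for H2AC13 leaves out the filter of at least 10 counts in every library.

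**Figure D2:**
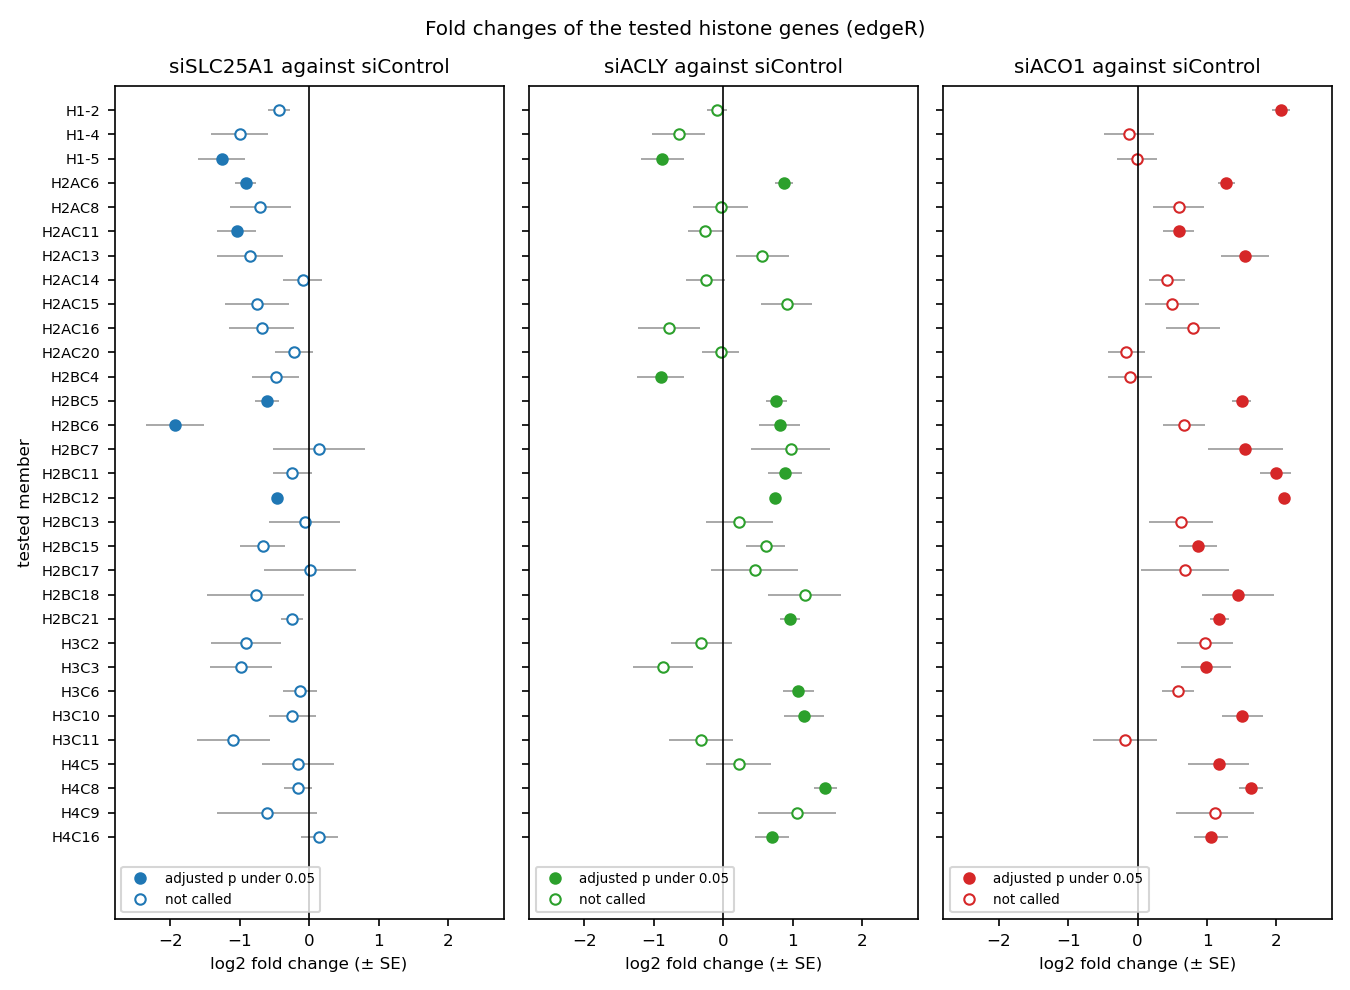
Log2 fold change of each of the 31 tested members against siControl in the 3 knockdowns, from the edgeR fit, with the SE as a line; filled points were called at an adjusted p under 0.05. In siACO1 16 points are filled, all to the right of 0; in siACLY 10 are filled to the right and 2 to the left; in siSLC25A1 6 are filled, all to the left.

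Knockdown of ACLY was followed by higher levels of 10 tested members and lower levels of 2, against 18.4% of all genes called higher and 18.3% lower. The comparisons of the 3 knockdowns use the same siControl libraries, so their values are not independent. The median log2 fold change of the members was 0.56 (range −0.9 to 1.47) and 19 of 31 were above 0. In 13 of the 31 all siACLY libraries lay above all siControl libraries and in 4 below, against 25.5% and 25% of all genes. The higher calls were 1 of 8 H2A genes, 5 of 11 H2B, 2 of 5 H3 and 2 of 4 H4, and 0 of 3 H1, for which DESeq2 and an unadjusted p under 0.05 also gave 0.

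H4C8 had the highest estimate in siACLY, at 1.47 ± 0.17 on the log2 scale or 2.77-fold (adjusted p = 5.29e-08), with the library values given above. H3C10 followed at 1.16 ± 0.29 (adjusted p = 0.00632). H3C6, an H3 gene (chr6:26224178-26227473, plus strand), was at 1.14, 1.08 and 1.25 CPM in siControl, 0.907, 1.53 and 0.746 CPM in siSLC25A1, 2.34, 2.52 and 2.51 CPM in siACLY, and 1.89, 1.76 and 1.54 CPM in siACO1. All siACLY libraries of H3C6 lay above those of every other group (log2 fold change 1.08 ± 0.22, adjusted p = 0.000291), and the estimate in siACO1 was 0.58 ± 0.23 (adjusted p = 0.0528).

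H2BC21, the H2B gene of the chromosome 1 cluster with the most reads (chr1:149884459-149886682, minus strand), was at 3.99, 4.75 and 3.93 CPM in siControl, 3.21, 4.15 and 3.36 CPM in siSLC25A1, 6.47, 8.88 and 9.72 CPM in siACLY, and 8.57, 9.65 and 10.5 CPM in siACO1. The siACLY and siACO1 libraries of H2BC21 overlapped one another and lay above the rest (siACLY log2 fold change 0.96 ± 0.14, adjusted p = 3.84e-06). H2BC11 (0.89), H2AC6 (0.87), H2BC6 (0.81), H2BC5 (0.76), H2BC12 (0.75) and H4C16 (0.7) were also called higher. The calls of H2BC6 and H4C16 were lost on leaving out single libraries: H2BC6 without siControl replicate 1 or 2 or siACLY replicate 2 or 3 (adjusted p up to 0.146), and H4C16 without siControl replicate 2 or 3 or siACLY replicate 1 or 2 (up to 0.144).

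The members called lower in siACLY were H1-5 and H2BC4. H1-5, a linker histone gene (chr6:27866792-27867588, minus strand), was at 1.34, 1.19 and 1.25 CPM in siControl, 0.802, 0.322 and 0.415 CPM in siSLC25A1, 0.719, 0.737 and 0.578 CPM in siACLY, and 1.41, 0.748 and 1.61 CPM in siACO1. The siSLC25A1 and siACLY libraries of H1-5 lay below the controls and overlapped each other, while siACO1 spanned the control range. Its log2 fold change in siACLY was −0.88 ± 0.31 (adjusted p = 0.0264), lost without siControl replicate 1 or 3 or siACLY replicate 1 or 3 (up to 0.0827). H2BC4, an H2B gene, had a mean of 0.812 ± 0.0586 CPM in siControl and 0.442 ± 0.091 CPM in siACLY (SD, n = 3). Its log2 fold change of −0.9 ± 0.34 (adjusted p = 0.0386) was lost in 8 of 13 alternatives, among them DESeq2 and leaving out any 1 siControl library or siACLY replicate 1 or 2 (up to 0.159).

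Knockdown of SLC25A1 was followed by lower levels of 6 tested members and higher levels of none, against 9.27% of all genes called lower and 10.3% higher. The median log2 fold change of the members was −0.61 (range −1.93 to 0.15), against −0.0045 over all genes, and 28 of the 31 estimates were below 0. In 13 of the 31 all siSLC25A1 libraries lay below all siControl libraries and in 0 above, against 18.7% and 18.4% of all genes. The calls were 1 of 3 H1 genes, 2 of 8 H2A and 3 of 11 H2B, and 0 of the 5 H3 and 4 H4 genes. DESeq2 gave 0 there as well, as it did for higher members. At an unadjusted p under 0.05 edgeR gave 2 lower H3 genes, 0 lower H4 genes and 0 higher members.

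H2BC6, an H2B gene, had the lowest estimate, with a mean of 0.902 ± 0.163 CPM in siControl and 0.23 ± 0.0948 CPM in siSLC25A1 (SD, n = 3), a log2 fold change of −1.93 ± 0.42 (adjusted p = 0.00114). Its exons overlap other genes over 28.2% of their bases, so the count may hold reads of a neighbour. H1-5 had a log2 fold change of −1.26 ± 0.34 (adjusted p = 0.00724), with all 3 siSLC25A1 libraries below all 3 controls. H2AC11, an H2A gene (chr6:27133043-27133535, plus strand), was at 1.37, 1.64 and 1.43 CPM in siControl, 0.802, 0.563 and 0.788 CPM in siSLC25A1, 0.832, 1.28 and 1.73 CPM in siACLY, and 2.09, 2.44 and 2.15 CPM in siACO1. Its siSLC25A1 libraries were all below and its siACO1 libraries all above the controls, and the siACLY libraries spanned the control range; the log2 fold change in siSLC25A1 was −1.04 ± 0.28 (adjusted p = 0.00796).

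H2AC6 was at 53.1% of siControl in siSLC25A1 (log2 fold change −0.91 ± 0.15, adjusted p = 8.73e-05). H2BC5 was at 65.6% (−0.61 ± 0.17, adjusted p = 0.0114) and H2BC12 at 72.5% (−0.46 ± 0.08, adjusted p = 7.97e-05). The calls of H2AC6, H2BC12 and H2BC6 held in every alternative that tested them; H2BC6 was not tested with at least 10 counts in every library. Those of H1-5 and H2AC11 were lost without siSLC25A1 replicate 2 (adjusted p up to 0.0561 and 0.0505), and that of H2BC5 without siControl replicate 2 or siSLC25A1 replicate 3 (up to 0.0775). H4C8 and H4C16 were not called, with log2 fold changes of −0.16 (95% interval −0.57 to 0.26) and 0.15 (−0.38 to 0.69).

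Set side by side, 3 members (H2AC6, H2BC5 and H2BC12) were called lower in siSLC25A1 and higher in both siACLY and siACO1. Another 5 (H2BC11, H2BC21, H3C10, H4C8 and H4C16) were called higher in siACLY and siACO1 and not called in siSLC25A1. A further 7 (H1-2, H2AC13, H2BC7, H2BC15, H2BC18, H3C3 and H4C5) were called in siACO1 alone, and 11 in none of the 3. These joint patterns were counted for the members only, with no share over all genes, and the comparisons use the same siControl libraries. A member called in 1 comparison and not in another is not thereby shown to differ, and the knockdowns were therefore compared with each other directly.

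**Figure D3:**
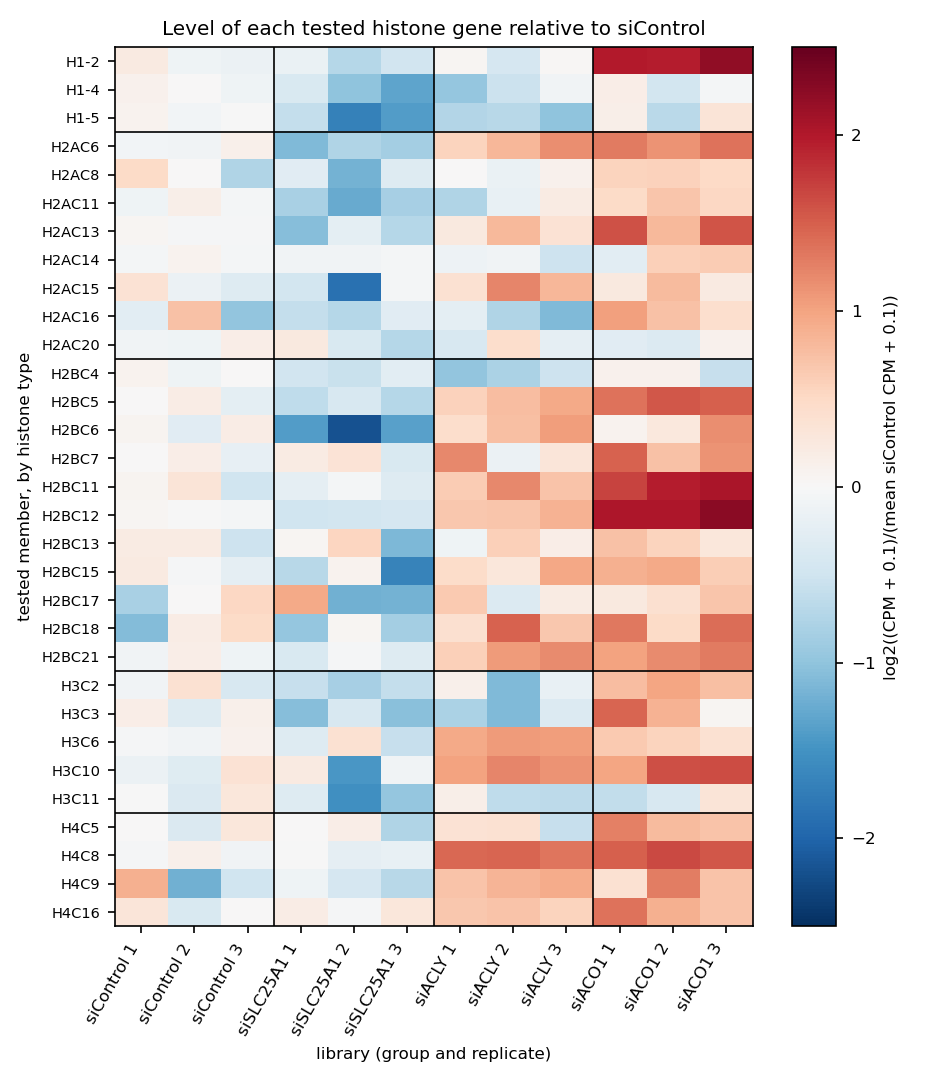
Level of each of the 31 tested members in each of the 12 libraries, as log2 of the CPM plus 0.1 over the mean siControl CPM plus 0.1, ordered by histone type. Most siSLC25A1 cells are blue (lower) and most siACO1 cells red (higher), with H1-2, H2BC11 and H2BC12 the darkest red in siACO1, and siACLY holds both colours.

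Between siSLC25A1 and siACO1, 24 of the 31 members were lower in siSLC25A1 and 0 higher, against 20.3% and 21.8% of all genes. The median log2 difference was −1.48, and every tested H4 gene was among those called. The calls of H4C5 and H4C9 did not hold in every alternative (adjusted p up to 0.112 and 0.15). Those of H2AC8, H2AC15, H2BC7 and H3C6 were also lost in some (up to 0.159). H2BC12 differed by −2.58 ± 0.07 on the log2 scale (adjusted p = 1.3e-21), H2BC6 by −2.6 ± 0.4 and H1-2 by −2.5 ± 0.14. The 7 that were not called were H1-4, H2AC14, H2AC20, H2BC4, H2BC13, H2BC17 and H3C11.

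Between siSLC25A1 and siACLY, 15 members were lower in siSLC25A1 and 0 higher, against 16.3% and 17.5% of all genes. H2BC6 (−2.75 ± 0.39), H2AC6 (−1.78 ± 0.15) and H4C8 (−1.63 ± 0.18) had large differences. The calls of H2AC11, H2AC13, H2BC18 and H4C9 did not hold in every alternative (adjusted p up to 0.241). The 3 tested H1 genes had estimates from −0.38 to −0.34 and gave 0 calls (0 with DESeq2 and 1 lower at an unadjusted p under 0.05).

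Between siACLY and siACO1, 12 members were lower in siACLY and 0 higher, against 20.7% and 21.4% of all genes. H1-2 differed by −2.15 ± 0.13 (adjusted p = 1.61e-09), H2BC12 by −1.36 ± 0.07 (adjusted p = 4.85e-16), H2BC11 by −1.1 ± 0.2 and H2BC5 by −0.73 ± 0.13. The 4 tested H4 genes gave 0 calls (0 with DESeq2 and 1 lower at an unadjusted p under 0.05), and H4C8 differed by −0.16 (95% interval −0.46 to 0.15). H2BC21, at −0.22 (−0.49 to 0.04), and H3C10, at −0.34 (−0.9 to 0.22), were not called either. At an unadjusted p under 0.05, 1 member was higher in siACLY. In the comparisons of siSLC25A1 with siACLY and with siACO1 the same cut-off gave 0 higher members, and DESeq2 gave 0 higher in all 3. The count of 12 depended on 1 library, since it was 7 without siACLY replicate 1, and among the 19 members with little shared or overlapped sequence it was 6.

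The head-to-head arrangement of many H2A and H2B genes allowed a comparison within a promoter. Promoters (RefSeq, GRCh38.p14; from 250 bases before to 50 after the start) were found for 64 members in 68 rows. On either strand, the octamer ATTTGCAT, the binding letters of the factor OCT1 (POU2F1), was found in 75.0% of the H2B and 68.8% of the H2A promoters, in 7.7% of H3 and in none of H1 and H4, against 1.77% of 35116 promoters in the table. The CCAAT box (letters CCAAT) was in all H1, H2A, H2B and H3 promoters and 23.1% of H4, against 34.61% of all promoters. The TATA box (letters TATAAA) was in 50% of H1, 75.0% of H2A, 70% of H2B, 69.2% of H3 and 53.8% of H4, against 11.53%. For 3 tested pairs a single octamer lay in both promoters, shown here on the strand of the H2B gene with the octamer in capitals, and beside them that of H2BC12:
H2BC4 and H2AC6, chr6:26124031-26124060, minus strand: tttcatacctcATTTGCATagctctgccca
H2BC21 and H2AC20, chr1:149886710-149886739, minus strand: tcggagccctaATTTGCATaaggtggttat
H2BC11 and H2AC11, chr6:27132824-27132853, minus strand: ctcttcaccttATTTGCATaagcgattcta
H2BC12, chr6:27146886-27146915, minus strand: ctcttcaccttATTTGCATgagaggtccta
In siACO1, 7 of the 14 tested members with the octamer were called higher and 9 of the 16 without it, against 17.8% of all genes. The calls were thus not limited to promoters with these letters.

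The genes of such a pair had different ratios to each other in different groups. The log2 ratio of reads of H2BC4 to H2AC6 (0.5 added to each count) was −2.94 ± 0.13 in siControl, −2.5 ± 0.26 in siSLC25A1, −4.67 ± 0.01 in siACLY and −4.35 ± 0.53 in siACO1 (SD, n = 3). The ratio was lower in every siACLY and siACO1 library than in any control. H2AC6 was called higher in both knockdowns, and H2BC4 was called lower in siACLY and not called in siACO1 (−0.11, 95% interval −0.76 to 0.55). For H2BC21 and H2AC20 the ratio was 1.44 ± 0.27 in siControl, 1.49 ± 0.6 in siSLC25A1, 2.47 ± 0.41 in siACLY and 2.8 ± 0.17 in siACO1. H2AC20 was called in none of the 3 comparisons (log2 fold changes −0.22, −0.04 and −0.16), and 50.6% of its 31-base stretches are shared with other genes. For H2BC11 and H2AC11 it was −0.66 ± 0.4, 0.21 ± 0.43, 0.55 ± 0.56 and 0.78 ± 0.18 in the same order. Exact two-sided permutation tests of each ratio against siControl gave p = 0.1, the smallest that 3 against 3 libraries allow, in 8 of the 9 comparisons and 0.9 for H2BC21/H2AC20 in siSLC25A1. Adjusted over the 15 comparisons of 5 pairs these were 0.188 and 0.964, so the design could not bring them under 0.05. The other 2 pairs, H2BC13/H2AC13 and H2BC15/H2AC15, gave permutation p-values from 0.2 to 1.0.

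**Figure D4:**
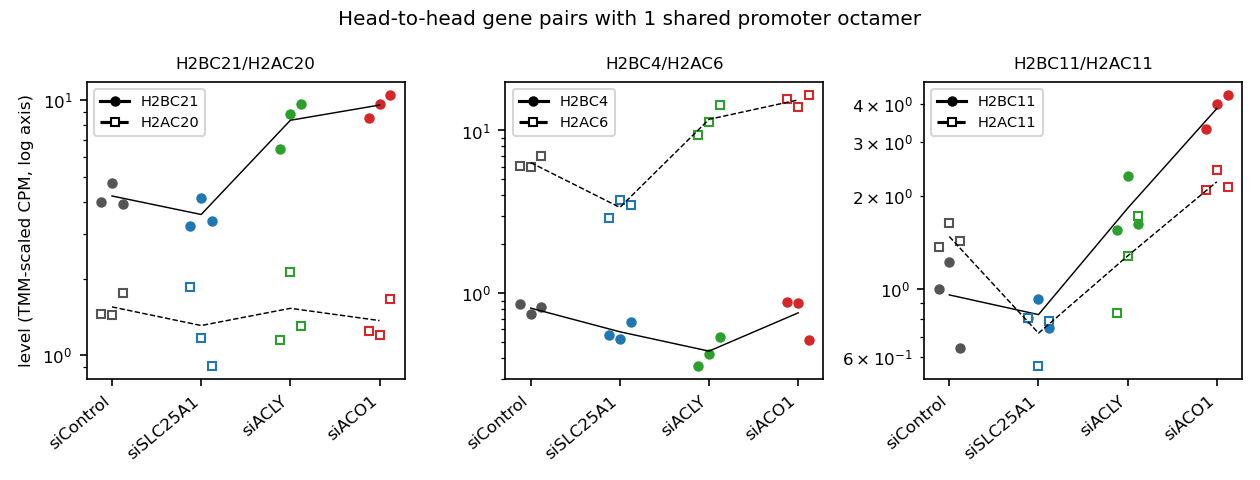
TMM-scaled CPM (log axis) of the 3 head-to-head pairs that share 1 promoter octamer, with 1 point for each library, filled circles for the H2B gene, open squares for the H2A gene and lines through the group means. H2BC21 and H2AC6 are higher in siACLY and siACO1 than in siControl, whereas their partners H2AC20 and H2BC4 are not.

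Position and transcript model were also compared. In siACO1, 7 of 13 tested members on chromosome 6 below 27 Mb were called higher, as were 6 of 14 above it, 2 of 3 on chromosome 1 and H4C16 on chromosome 12, against 17.8% of all genes. Of the 13 tested members whose annotated transcript runs over 100 bases past the stem-loop, 10 were called higher in siACO1, 6 higher and 1 lower in siACLY, and 3 lower in siSLC25A1. Of all genes, 17.8% were called higher in siACO1, 18.4% higher and 18.3% lower in siACLY, and 9.27% lower in siSLC25A1. Of the 16 others with a model, 5 were called higher in siACO1, 4 higher and 1 lower in siACLY, and 3 lower in siSLC25A1. These 16 have a model that lacks the stem-loop letters or runs up to 100 bases past them. A model without the letters, such as that of H2BC12, does not show where the transcript ends. Members with longer transcripts may therefore stand among the 16. H4C9 lies within the annotated span of H2BC12 on the other strand. In the GENCODE 29 models 0.0% of the exon bases of H4C9 overlapped other genes, and 4.7% of its 31-base stretches were shared. The annotation and use of strand in counting are not given in the sources used here, so sharing of reads with H2BC12 could not be checked. H4C9 was not called against siControl in any knockdown.

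Genes that transcribe and process histone transcripts were given as a list of 25, of which 24 were tested. In siSLC25A1 3 were higher and 4 lower (median log2 fold change −0.01), in siACLY 0 and 9 (−0.1), and in siACO1 2 and 10 (−0.13). Of all genes, 10.3% were called higher and 9.27% lower in siSLC25A1, 18.4% and 18.3% in siACLY, and 17.8% and 19.3% in siACO1, so the 3 higher in siSLC25A1 are near the share of all genes. The 0 was also 0 with DESeq2 and at an unadjusted p under 0.05. SLBP was at 90.3 ± 0.218 CPM in siControl, 88.7 ± 4.91 in siSLC25A1 (adjusted p = 0.757), 82.5 ± 1.49 in siACLY (adjusted p = 0.0218) and 75.2 ± 0.983 in siACO1 (adjusted p = 2.64e-05). SLBP was thus called lower in siACLY and siACO1 (log2 fold changes −0.13 and −0.26), and its part in the histone levels was not tested. NPAT was at 31.3 CPM in siControl and 31.7, 30.1 and 32.3 CPM in siSLC25A1, siACLY and siACO1, and was not called.

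LSM11, a protein of the U7 particle, fell in siACO1 from 12.7 ± 0.244 to 8.12 ± 0.862 CPM (log2 fold change −0.64, adjusted p = 1.78e-06). LSM11 also fell in siACLY (−0.27). CCNE1, the cyclin E partner of CDK2, fell in siSLC25A1 (−0.26) and siACO1 (−0.55), and its relative CCNE2 fell in siACLY (−0.74). The S phase transcription factor E2F1 fell in both siACLY (−0.54) and siACO1 (−0.43) and rose in siSLC25A1 (0.24). EXOSC10, a nuclear exosome nuclease, fell in siSLC25A1 (−0.79, adjusted p = 7.36e-14) and siACO1 (−0.13). ERI1, a nuclease that trims the histone stem-loop, rose in siSLC25A1 (0.33) and was not called in siACLY or siACO1.

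Of 16 tested histone chaperones, 2 were higher and 1 lower in siSLC25A1, 1 and 8 in siACLY, and 1 and 8 in siACO1, with median log2 fold changes of −0.06, −0.17 and −0.16. The shares of all genes called higher and lower were 10.3% and 9.27% in siSLC25A1, 18.4% and 18.3% in siACLY, and 17.8% and 19.3% in siACO1, as for every list here. CHAF1A, a subunit of the complex that loads new H3 and H4 onto replicated DNA, fell in siACLY (−0.59) and siACO1 (−0.37), and its partner CHAF1B fell in siACLY (−0.25) and siACO1 (−0.49). UBN1, of the HIRA complex that deposits H3.3, rose in siSLC25A1 (0.44) and siACLY (0.27) and fell in siACO1 (−0.22).

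Replication-independent variants are made through the cell cycle, mostly from ordinary polyadenylated transcripts; H2AX, which stands in this list, is known to make a stem-loop transcript as well. Of 11 tested, 2 were higher and 2 lower in siSLC25A1, 2 and 4 in siACLY, and 6 and 1 in siACO1 (median log2 fold changes 0.03, −0.1 and 0.27). H2AJ fell in siSLC25A1 (−0.18) and siACLY (−0.25) and rose in siACO1 (0.34). H1-10 fell in siACLY (−0.23) and rose in siACO1 (0.33), and MACROH2A2 rose in siACLY (0.22) and fell in siACO1 (−0.58).

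Genes of S phase, when histone transcripts are normally made, were called lower more often than higher in siACLY and siACO1. Of 22 tested, 4 were higher and 0 lower in siSLC25A1, 0 and 15 in siACLY, and 1 and 11 in siACO1, with median log2 fold changes of 0.04, −0.25 and −0.21. PCNA, the sliding clamp of replication, fell in siACLY (−0.9), CDC6, a loader of the replicative helicase, fell in siACLY (−0.61) and siACO1 (−0.62), and MCM5, a subunit of that helicase, fell in siACLY (−0.52) and siACO1 (−0.56). RRM2, a subunit of ribonucleotide reductase, rose in siSLC25A1 (0.37) and siACO1 (0.32). Of 15 G2 and mitosis genes, 7 were higher and 0 lower in siSLC25A1, 0 and 9 in siACLY, and 2 and 3 in siACO1. Among these MKI67 rose in siSLC25A1 (0.44) and KIF11 fell in siACLY (−0.36) and rose in siACO1 (0.18). SLBP and CCNE2 stand in both the processing and the S phase list, and SSRP1 in both the processing and the chaperone list. At an unadjusted p under 0.05 edgeR had 2 higher S phase genes in siACLY and 0 for the other counts of 0 in this paragraph, and DESeq2 gave 0 for each. The part of these changes in the histone levels was not tested.

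**Figure D5:**
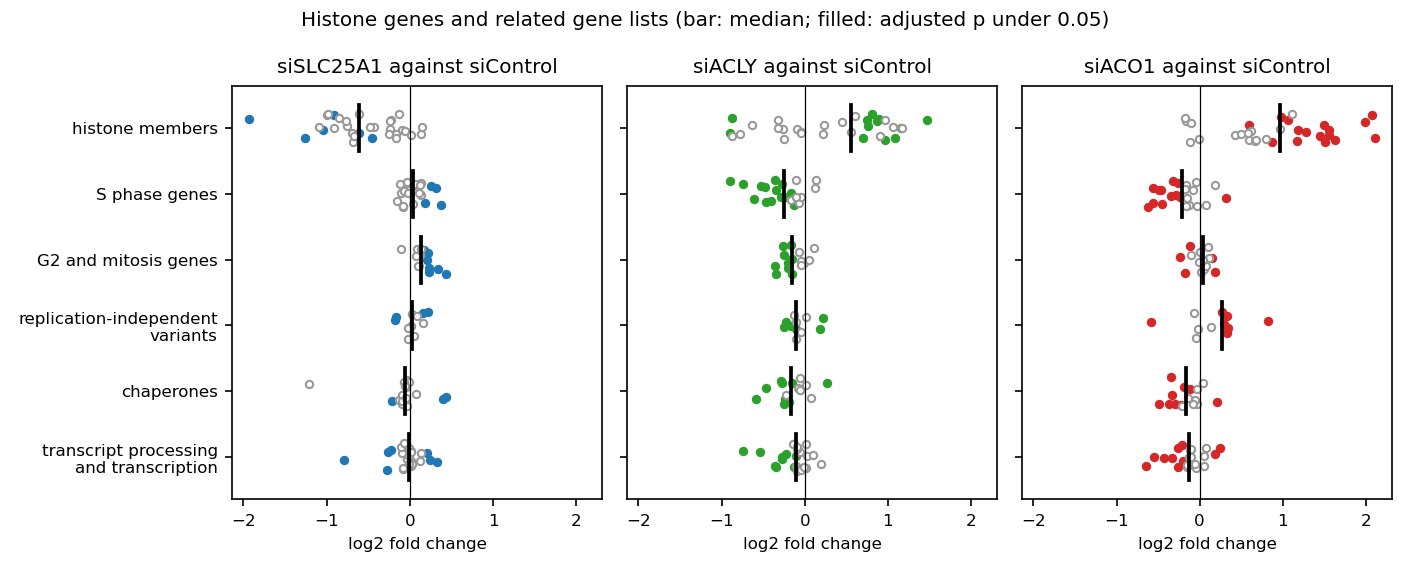
Log2 fold change against siControl of the 31 tested histone members and of 5 other gene lists in the 3 knockdowns, with 1 point for each gene (spread vertically at random), filled where called at an adjusted p under 0.05, and a bar at the median. In siACO1 the median of the histone members is 0.97 and that of the S phase genes −0.21; in siSLC25A1 they are −0.61 and 0.04.

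Values that bear on the selection of RNA were compared as well. A list of 21 other RNAs without a poly(A) tail had 3 tested genes, RN7SL1, SNORA73B and SNORD3A, with median log2 fold changes of −0.28, −0.13 and −0.06 in siSLC25A1, siACLY and siACO1. Both edgeR and DESeq2 called 0 of them in each, and at an unadjusted p under 0.05 edgeR had 1 lower, SNORD3A in siSLC25A1. The summed level of the 21 was 49.5 to 82.4 CPM in siControl, 45.9 to 68.2 in siSLC25A1, 43.1 to 96.9 in siACLY and 51.2 to 65.2 in siACO1, and all groups overlapped. Most of this sum was RN7SL1, at 66.3 ± 19 CPM in siControl, 54.3 ± 11.5 in siSLC25A1, 57.1 ± 30.2 in siACLY and 53.9 ± 6.82 in siACO1. The overlap therefore describes mainly that gene and its spread between replicates. Histone transcripts that end at the stem-loop are short, while the annotated models of the members ran from 297 to 2679 bases. Fold changes of all genes leaned slightly on transcript length. Over 15376 genes Spearman's rho was 0.129 in siSLC25A1, −0.033 in siACLY and −0.125 in siACO1, as a description across genes that are not independent. The median log2 fold change of 1926 other genes with transcripts under 1000 bases was −0.07, 0.04 and 0.09, beside −0.61, 0.56 and 0.97 for the members. Members with longer models, such as H2BC21 (2194 bases) and H4C8 (2163 bases), are not matched in length by these genes. The part of length in the members' values was not tested. In siACO1 replicate 3, differences from the mean of the other siACO1 replicates ran with length (rho −0.253), while the members' median difference was 0.04. Without that library 15 members were called higher in siACO1.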

How the data were processed

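RNA of 12 MiaPaCa-2 libraries was sequenced after poly(A) selection, DNase treatment and random-hexamer priming, per the labels' protocols. The authors deposited 1 table of raw read counts per Ensembl gene, with 1 column for each library. The submitters' processing notes name CASAVA, FastQC, Trim Galore, STAR 2.7.0e, DESeq2 and the builds GRCm39 and GRCh38 with no role; the counting tool, annotation and use of strand are not given in the sources used here. Symbols matched 62700 of the 70116 identifiers (89.4%), and genome places are from RefSeq on GRCh38.p14.

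Counts were filtered with filterByExpr, which left 16197 genes, scaled by TMM and fitted with edgeR 4.0.16 (R 4.3.3) in a robust quasi-likelihood model of the 4 groups, with 8 residual degrees of freedom and a common biological coefficient of variation of 4.89%. Tests were two-sided, with Benjamini-Hochberg adjustment over all genes tested and an adjusted p under 0.05 counted as a call. DESeq2 (1.42.0) was an alternative, and its values are named as such. Levels are CPM scaled by TMM, as mean ± SD over 3 libraries, and do not account for transcript length, so shares of the members' CPM are shares of reads.

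The members and the gene lists were chosen with earlier results of these data known. Values in every library are given for called members whose higher group averaged 1 CPM or more, up to 6 with the largest change in each comparison with siControl, and for the member with the most reads of each histone type; from each list the 3 called genes with the largest change in a comparison could be named, and SLBP and NPAT always. A gene of these lists that the rule would name is not reported here. Reads of a tested member may be shared with other genes where 20% or more of its 31-base stretches or exon bases recur in or overlap them, which applied to 10 of the 31 (H2AC13, H2AC14, H2AC15, H2AC16, H2AC20, H2BC6, H2BC12, H2BC13, H2BC17 and H2BC18); 2 more, H3C2 and H3C3, had no GENCODE model. The comparisons of head-to-head pairs, gene position and transcript model were added after the values were seen. On counts simulated for siACO1 against siControl over 15824 genes, the fit called 82.65% of 98 genes with a 2-fold change, 76.77% of 99 genes changed by 0.5 on the log2 scale and 5 of 15627 unchanged genes. The changed genes were drawn from all genes, with the same biological coefficient of variation for each. These rates therefore do not describe members with few counts. Other size factors, filters, DESeq2, a replicate block, fits of 2 groups and leaving out each library were tried.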

Additional observations from a re-analysis of the deposited data

How the results depend on the processing

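The count of called members stayed within 1.5 times its value except in the cases that follow. With at least 10 counts required in every library, only 14 members were tested, and the count lower in siSLC25A1 was 9 against siACLY (15 as reported) and 11 against siACO1 (24 as reported). Restricting the comparison of siACLY with siACO1 to the 19 members with little shared or overlapped sequence, an alternative chosen after seeing the data, gave 6 instead of 12. Leaving out 1 library at a time gave 5 to 9 calls in siSLC25A1 (6 as reported), 9 to 11 in siACLY (12), 12 to 15 in siACO1 (16), 12 to 14 for siSLC25A1 against siACLY (15), 20 to 24 for siSLC25A1 against siACO1 (24) and 7 to 11 for siACLY against siACO1 (12); the 7 was without siACLY replicate 1. The log2 ratio of the summed level to siControl then lay between −0.54 and −0.47 for siSLC25A1 (−0.5), between 0.51 and 0.63 for siACLY (0.58) and between 1.51 and 1.61 for siACO1 (1.57). Without H2BC12 and H1-2, also chosen after seeing the data, it was 1.04 in siACO1. Same-numbered replicates did not deviate together (correlations −0.034 to 0.067 over 18 pairs, 0 above 0.1), and with a replicate block 7, 12 and 15 members were called in siSLC25A1, siACLY and siACO1. Scaling by library totals changed the share of higher calls over all genes from 50.1% to 61% in siACLY, from 47.9% to 59.5% in siACO1, from 51.8% to 41% for siSLC25A1 against siACLY and from 51.8% to 42.2% for siSLC25A1 against siACO1; members were then called 11 higher and 1 lower in siACLY and 18 higher in siACO1. Of the 85 calls of single members, 56 held under every alternative that tested them, and of 1065 alternative values 115 lost the call and 0 changed sign. Members with few counts are limited by depth.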
